A study of Rattus norvegicus with 4 samples.

Results

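The genes described here encode axon guidance proteins, the semaphorins, ephrins, Slits and netrins and their receptors. They were measured in cultured rat aortic smooth muscle cells with and without IL-1b, interleukin-1 beta, a cytokine that drives inflammation. Members were taken by gene symbol, as those that begin with Sema, Plxn, Efn, Epha, Ephb, Slit, Robo, Unc5, Ntn or Nrp2, without Slitrk and Ntng. The rule gave 56 genes with 94 probe sets, out of 14217 genes with a probe set of a single symbol and 31099 probe sets in all. A probe set is the group of short probes on the array that together report 1 transcript. Unc50 and Unc5cl entered by their prefix alone. The product of Unc50 is not a netrin receptor, and that of Unc5cl lacks the netrin-binding domains.

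All cells were Sprague-Dawley aortic smooth muscle cells, held for 5 days in medium with 10% serum and then for 3 days in medium without serum. In the following 24 hours, 2 samples received vehicle (0.1% BSA) and 2 samples received IL-1b at 2.5 ng/mL. Each sample was hybridised to 1 single-colour Affymetrix array. Nothing in the labels ties the samples to separate cultures or animals, so the p-values reflect sample-to-sample spread that could be purely technical.

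Guidance proteins were named for steering growing axons, and they also act on vessels. Semaphorins signal through plexins, and the secreted class 3 semaphorins use neuropilins as co-receptors. Ephrins are bound to the cell surface and signal through Eph receptor tyrosine kinases on neighbouring cells, with signals in both directions. Slits bind Robo receptors, and netrins bind Unc5 receptors and the receptors of the DCC and neogenin family. Most of these receptors change the cytoskeleton and adhesion of the cell that carries them.

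1 array, IL-1b replicate 1, differed from the rest, with hybridisation controls at 3.50 times their vehicle level. The background of an array, taken from control probe sets for bacterial transcripts, was 29.4 and 26.9 intensity units on vehicle replicates 1 and 2 and 76.7 and 18.8 on IL-1b replicates 1 and 2. Smooth muscle markers were measured for 11 of 11 genes and were above background on all 4 arrays for 8 of them. Their summed intensity was 43925 to 44301 with vehicle and 12671 to 13754 with IL-1b, and 10 of the 11 fell. The summed intensity of 11 endothelial markers was 321 to 388 with vehicle and 365 to 638 with IL-1b, and 1 (Egfl7) was above background on all 4 arrays. Of these 11 markers, 5 (Pecam1, Tie1, Vwf, Emcn and Cldn5) were below background on every array. Tek and Esam were above it on 3 arrays, Sox17 and Ecscr on 2 and Kdr on 1. For 14 macrophage markers the sum was 735 to 894 and 1113 to 1218, with 1 (Cd14) above background on all arrays, and for 10 nerve and Schwann cell markers it was 155 to 268 and 197 to 610, with 0 above background on all arrays. The higher IL-1b sum of the endothelial, macrophage and nerve lists was in each case that of IL-1b replicate 1, the array with the highest background. Cd14 alone made up most of the macrophage sum on every array. For 9 fibroblast markers the sum was 831 to 872 with vehicle and 1563 to 1941 with IL-1b, 4 were above background on all arrays, and Pdgfra and Dpt rose. The part of these markers in the results below was not tested. In such bulk RNA, fewer cells of a type and less RNA per cell cannot be told apart.

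After 24 hours with IL-1b, the cells had more transcript of netrin-1, of Slit2 and its receptor Robo1, of the Eph receptor Epha2, of the membrane semaphorins Sema4a and Sema4b, and of the receptors Plxna2 and Nrp2. They had less of the secreted semaphorins Sema3d and Sema3e and of the netrin receptor Unc5c. Of the 56 genes, 35 had a probe set bright enough to be tested, by its mean over all 4 arrays. Plxna2 was bright enough only through its IL-1b arrays and Sema3e only through its vehicle arrays. At a Benjamini-Hochberg adjusted p of 0.05 in limma, 8 of the 35 (22.9%) were higher, where 7.19% of all 10000 genes tested were, and 3 (8.57%) were lower, against 8.13% of all genes. The gap between the members and all genes changed in size with the arrays used. It was kept when vehicle replicate 1 or vehicle replicate 2 was left out. In a fit of 3 arrays the spread came from the 1 pair left. Without IL-1b replicate 2, 8 of 33 members (24.2%) were higher, against 23.3% of all genes, and without IL-1b replicate 1, 10 of 35 (28.6%) were, against 15.6%. With all 4 arrays, 11 (31.4%) passed in either direction, against 15.3% of all genes. The other 24 did not pass. The median log2 fold change of the 35 genes was -0.04, and that of all genes tested was -0.01, with 17 of the 35 above 0 and 18 below. With the arrays centred on their medians, which moved the median of all genes to -0.21, 6 members were higher, where 3.38% of all genes were, and 3 were lower, against 6.17%. Of all genes called, 46.9% were higher, and with median centring 35.4%. Fold changes are on the scale of log2 of intensity plus an offset of 5.49, which understates the change of dim genes. Every gene is given by its brightest probe set unless stated.

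**Figure D1:**
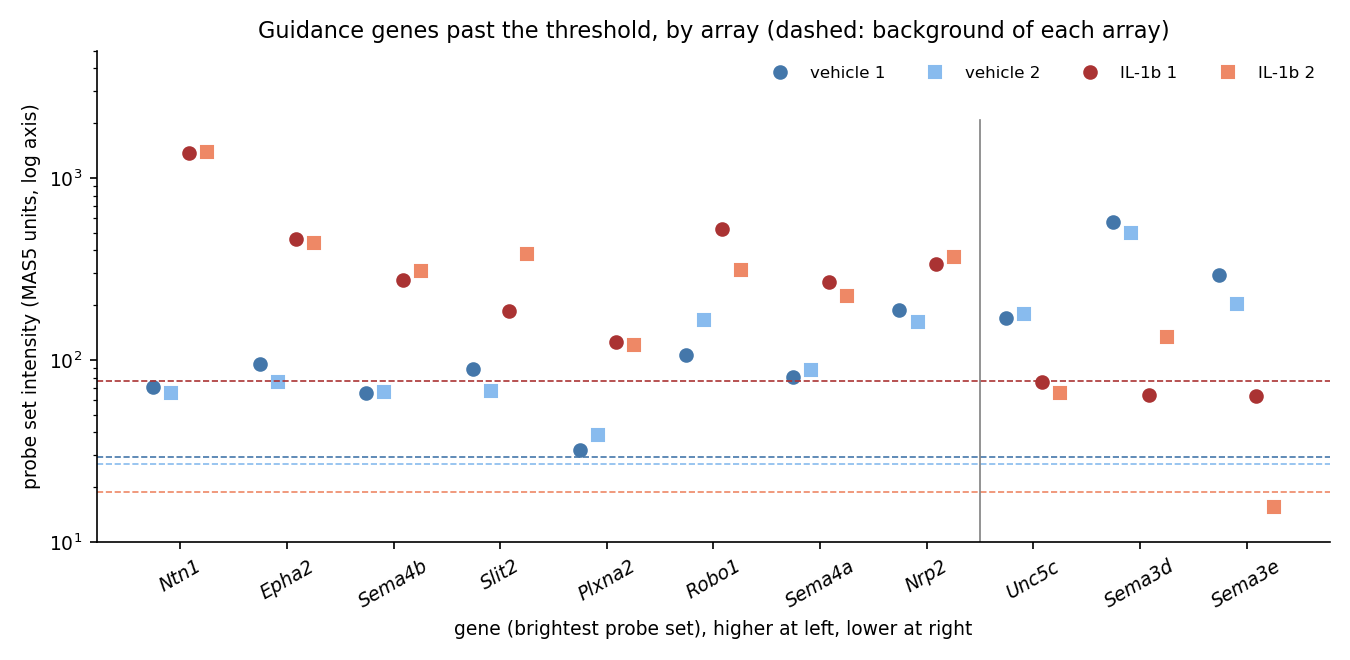
Probe set intensity (MAS5 units, log axis) of the 11 guidance genes past the threshold on each of the 4 arrays, with 1 point per array and dashed lines at the background of each array in the colour of that array. Ntn1 shows the widest separation of the groups, from 71.4 and 66.1 with vehicle to 1376 and 1386 with IL-1b, and both IL-1b points of Sema3e lie below the background of their own arrays.

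The sequences just before the transcription start are shown for 2 genes that rose with small spread (Epha2 and Sema4b), for the called decrease with the smallest adjusted p (Sema3d), and for the 1 called gene with a motif match (Robo1). Each is the 250 bases before an annotated start, written 5′ to 3′ on the strand of the gene, from RefSeq on build GRCr8, and capitals mark the match.
Epha2 chr5:158888379-158888628 (+): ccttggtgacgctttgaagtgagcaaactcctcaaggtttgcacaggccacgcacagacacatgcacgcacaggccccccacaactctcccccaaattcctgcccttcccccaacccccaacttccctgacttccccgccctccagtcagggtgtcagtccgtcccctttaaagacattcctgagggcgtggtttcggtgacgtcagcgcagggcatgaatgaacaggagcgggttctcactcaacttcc
Sema4b chr1:143558547-143558796 (+): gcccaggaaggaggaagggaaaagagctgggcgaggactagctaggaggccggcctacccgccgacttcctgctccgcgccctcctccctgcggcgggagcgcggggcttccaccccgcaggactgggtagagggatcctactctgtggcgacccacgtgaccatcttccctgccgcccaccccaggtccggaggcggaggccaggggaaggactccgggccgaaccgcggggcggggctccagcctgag
Sema3d chr4:23460972-23461221 (-): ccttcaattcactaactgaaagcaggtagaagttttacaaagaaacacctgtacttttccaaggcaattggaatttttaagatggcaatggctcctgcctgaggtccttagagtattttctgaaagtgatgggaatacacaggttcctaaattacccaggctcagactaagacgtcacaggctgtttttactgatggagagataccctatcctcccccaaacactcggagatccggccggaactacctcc
Robo1 chr11:24714445-24714694 (+): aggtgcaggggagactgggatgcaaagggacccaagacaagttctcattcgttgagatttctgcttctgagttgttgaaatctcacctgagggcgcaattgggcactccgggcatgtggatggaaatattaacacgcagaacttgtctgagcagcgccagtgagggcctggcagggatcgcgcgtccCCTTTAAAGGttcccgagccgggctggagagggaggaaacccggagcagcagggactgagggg
Both strands of the 43 such windows of 42 member genes were searched for the letters of 3 factors. A strict and a looser form of the motif of NF-kB, an inflammatory transcription factor activated by IL-1b, the looser holding every match of the strict, each matched 0 of 43 windows, against 0.314% and 1.3% of 33469 windows of all genes. TGACTCA, for AP-1, matched 1 of 43 (Epha10), against 4.05%. The CArG box, bound by serum response factor, matched 2 of 43, in Sema3c and at the more downstream of the 2 annotated starts of Robo1, against 1.5%. In Robo1 the match CCTTTAAAGG began 63 bases before that start. A match is a description of letters and not of binding, and no match says only that these letters are not in this window. Among the 11 genes past the threshold, 8 had such a window, and Ntn1, Slit2 and Unc5c did not.

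Netrin-1 (Ntn1), a secreted laminin-related guidance cue, showed the largest change among the members tested. Its intensity was 71.4 and 66.1 on vehicle replicates 1 and 2 and 1376 and 1386 on IL-1b replicates 1 and 2. Both treated arrays were far above both vehicle arrays, and the arrays of a group differed little. The group means were 68.8 ± 3.72 and 1381 ± 7.495 (SD, n = 2), a rise of 18.7-fold (log2 fold change 4.22 ± 0.18, SE, adjusted p = 4.6e-05). A further probe set of Ntn1 read 31.8 and 28.9 with vehicle and 196 and 144 with IL-1b (log2 fold change 2.28 ± 0.42, adjusted p = 0.013). Its vehicle values alone averaged below the brightness filter, so it entered the test only through its IL-1b arrays. The third was too dim on average to be tested, at 3.33 and 2.28 with vehicle, below background on both arrays, and 114 and 53.6 with IL-1b, above background on both. All 3 probe sets therefore separated the groups in the same direction. Ntn5, the other netrin on the array, was too dim to be tested.

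No netrin receptor tested passed as higher. Unc5c, a transmembrane receptor through which netrin repels, read 170 and 178 with vehicle and 75.4 and 65.9 with IL-1b, the higher of these just below the background of its array. The groups did not overlap, and Unc5c fell, with a log2 fold change of -1.24 ± 0.31 (adjusted p = 0.042). Its other probe set, at 61.0 and 54.0 with vehicle and 47.6 and 28.5 with IL-1b, did not pass (-0.57 ± 0.58 on the log2 scale, adjusted p = 0.57). Unc5b, the Unc5 receptor best known from blood vessels, read 533 and 487 with vehicle and 424 and 434 with IL-1b and did not pass (adjusted p = 0.37, 95% interval of the log2 fold change -0.62 to 0.13). Its second probe set was at 0.36 (adjusted p = 0.43), so the 2 probe sets of Unc5b differed in sign. Neogenin (Neo1), a netrin receptor outside the symbol rule, read 303 and 267 with vehicle and 184 and 224 with IL-1b (adjusted p = 0.21). For the members by prefix alone, Unc50 and Unc5cl, the log2 fold changes were -0.30 and -0.39 (adjusted p = 0.25 and 0.69).

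Both partners of a Slit and Robo pair rose. Slit2, a large secreted ligand that limits migration in many cell types, read 89.6 and 67.7 with vehicle and 187 and 382 with IL-1b. The groups were apart, although IL-1b replicate 2 read well above IL-1b replicate 1. The means were 78.6 ± 15.5 and 284 ± 138 (SD, n = 2), with a log2 fold change of 1.71 ± 0.39 (SE, adjusted p = 0.03). A further Slit2 probe set, at 63.9 and 94.2 with vehicle and 232 and 266 with IL-1b, gave 1.61 ± 0.30 (adjusted p = 0.015), and the third was too dim to be tested. Robo1, the Slit receptor, had 1 probe set, at 106 and 166 with vehicle and 524 and 311 with IL-1b. Here IL-1b replicate 1 was the higher of the treated arrays, the reverse of Slit2, and again the groups did not overlap. Robo1 rose by 1.56 ± 0.33 on the log2 scale, 2.95-fold (adjusted p = 0.023). Robo2 was near background, at 28.9 and 38.0 with vehicle and 48.5 and 42.0 with IL-1b, and did not pass (adjusted p = 0.73, 95% interval of the log2 fold change -1.10 to 1.88). Slit1, Slit3 and Robo3 were too dim to be tested.

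**Figure D2:**
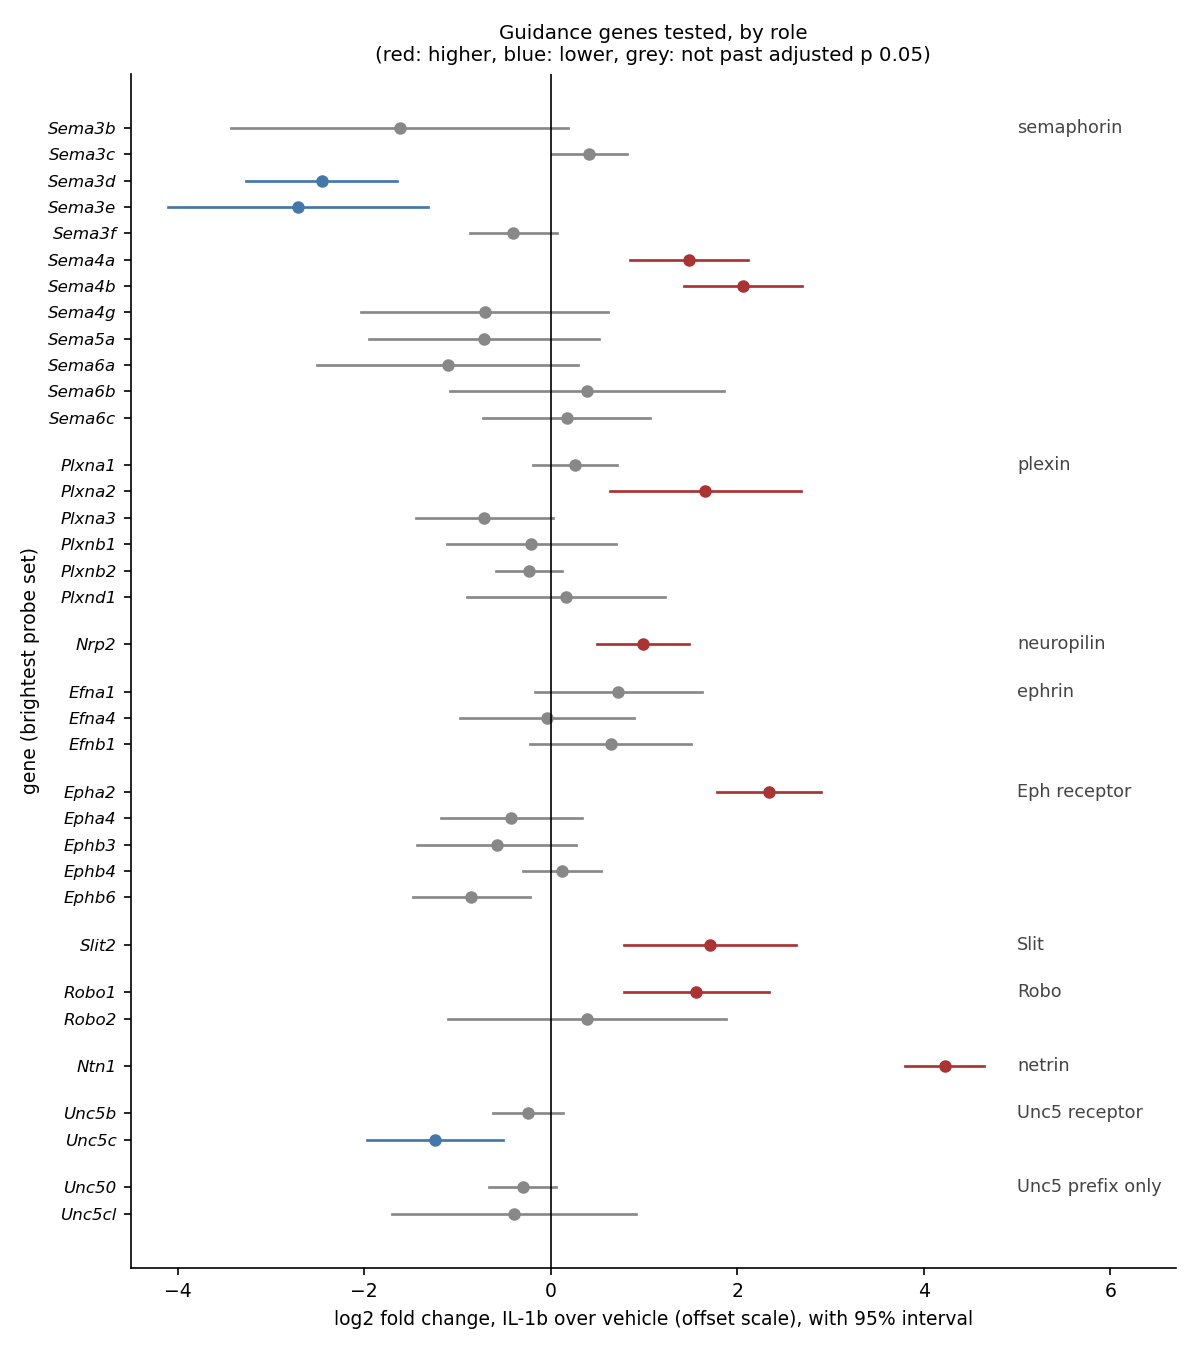
Log2 fold change of IL-1b over vehicle (offset scale, points) with its 95% interval (lines) for the brightest probe set of each of the 35 guidance genes tested, grouped by role. The genes in red rose and those in blue fell, from -2.71 for Sema3e to 4.22 for Ntn1, and the 24 in grey did not pass.

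Semaphorins moved in both directions. Of 17 genes, 12 were tested, 2 rose, 2 fell and 8 did not pass, where 7.19% of all genes rose and 8.13% fell. The 2 that rose are of class 4, anchored in the membrane. Sema4b read 65.7 and 66.3 with vehicle and 275 and 310.2 with IL-1b. Its arrays agreed within each group, and it rose by 2.06 ± 0.27 on the log2 scale, 4.16-fold (SE, adjusted p = 0.0032). Sema4a, known as a ligand on immune cells, read 80.8 and 88.5 with vehicle and 267 and 226 with IL-1b, a rise of 1.48 ± 0.27 (adjusted p = 0.013). Sema4g, also of class 4, read 76.8 and 66.6 with vehicle and 60.6 and 28.0 with IL-1b and did not pass (adjusted p = 0.46).

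The 2 semaphorins that fell are secreted and of class 3. Sema3d read 569.9 and 499 with vehicle and 63.9 and 133 with IL-1b. Both treated values were far below both vehicle values, and the one on IL-1b replicate 1 was below the background of its array. The means were 534 ± 50.3 and 98.5 ± 48.9 (SD, n = 2), with a log2 fold change of -2.46 ± 0.34 (SE, adjusted p = 0.0043). Sema3e, which signals through plexin D1 without needing a neuropilin, read 292 and 203 with vehicle and 63.1 and 15.6 with IL-1b. Both treated arrays were below background, so its decrease has only a bound, at least 6.41-fold from the mean of the vehicle log values to the mean log background of the treated arrays (adjusted p = 0.026 in the fit). Taken singly, the background of IL-1b replicate 1 was 3.18-fold and that of IL-1b replicate 2 was 12.9-fold below that vehicle mean. Its fitted log2 fold change was -2.71 ± 0.59. The treated values of Sema3e alone averaged below the brightness filter, so it entered the test only through its vehicle arrays. Sema3b, at 82.0 and 59.97 with vehicle and 9.02 and 36.4 with IL-1b, had a log2 fold change of -1.62 but spread widely and did not pass (adjusted p = 0.23, 95% interval -3.43 to 0.19).

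Other class 3 semaphorins that read well above background did not pass. Sema3c, a cue for the outflow tract of the developing heart, read 1024 and 1128 with vehicle and 1266 and 1623 with IL-1b (adjusted p = 0.17, 95% interval of the log2 fold change 0.01 to 0.81). Sema3f, a ligand of Nrp2, read 925 and 922 with vehicle and 839 and 582 with IL-1b (adjusted p = 0.25, interval -0.87 to 0.07), and its further probe set gave -0.38. For both genes a change of more than 2-fold lay outside the interval.

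The probe sets of Sema6a, a membrane semaphorin that binds class A plexins, differed. At its brightest probe set Sema6a read 146 and 112 with vehicle and 107 and 29.0 with IL-1b and did not pass (-1.10 ± 0.59 on the log2 scale, SE, adjusted p = 0.28). At another the values were 279 and 262 with vehicle and 15.9 and 35.8 with IL-1b, and this probe set passed (log2 fold change -3.22 ± 0.44, adjusted p = 0.0041). Its value on IL-1b replicate 1 was below the background of that array (76.7), so the size of this decrease is uncertain. This probe set entered the test only through its vehicle arrays, since its treated values alone averaged below the brightness filter. The direction was the same in both, and the size differed by more than 2 on the log2 scale. The other 3 probe sets of Sema6a were too dim to be tested. Sema6c had probe sets of opposite sign, at 0.17 and -0.44 (adjusted p = 0.81 and 0.67), and its direction at the brighter one turned with quantile normalization and with median centring. Sema5a and Sema6b did not pass (adjusted p = 0.42 and 0.73).

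**Figure D3:**
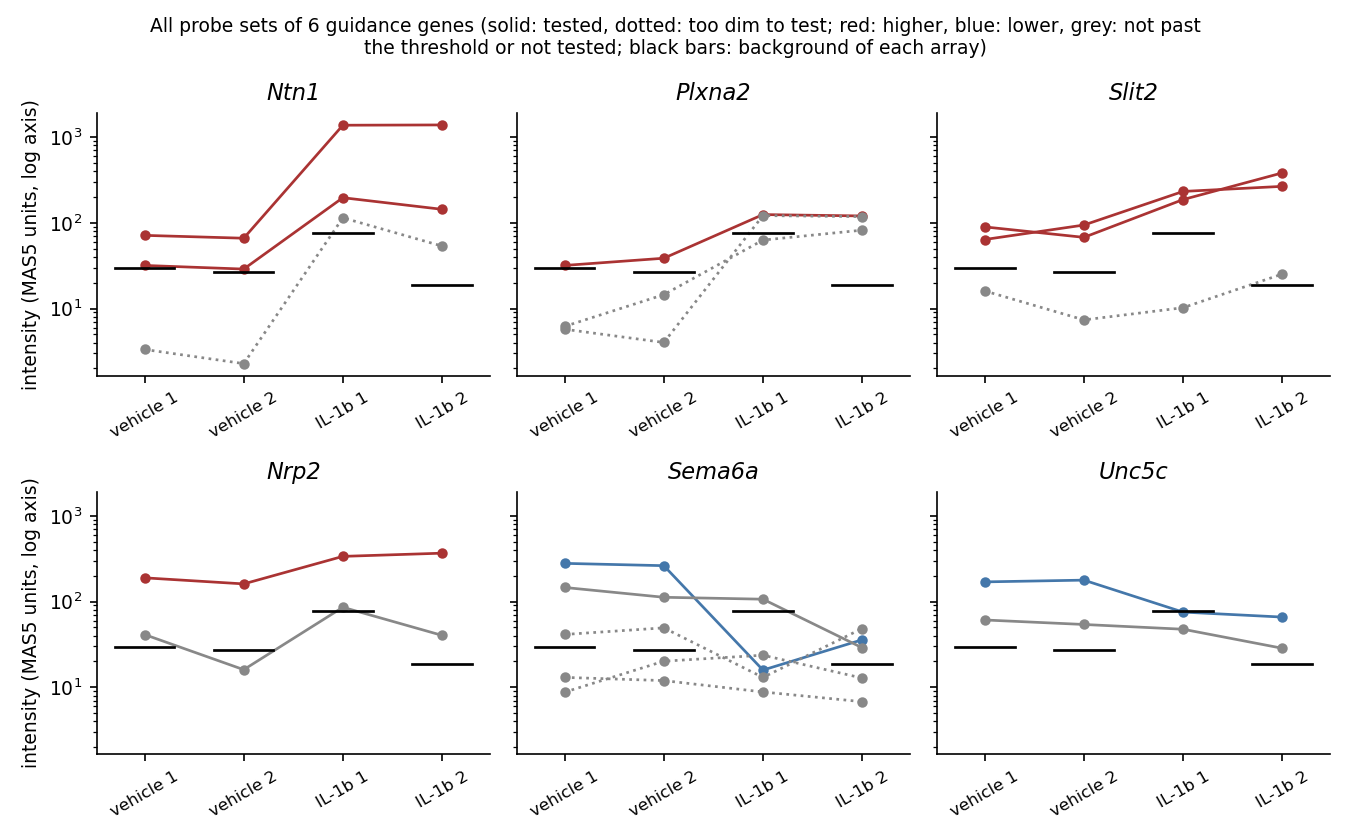
Intensity (MAS5 units, log axis) of every probe set of 6 guidance genes on the 4 arrays. Lines join the values of 1 probe set and carry no order between arrays, solid lines were tested and dotted lines were too dim to test, and black bars give the background of each array. All 3 probe sets of Ntn1 and of Plxna2 are higher on both IL-1b arrays than on both vehicle arrays, while those of Sema6a and Unc5c differ in size and, among the dim ones of Sema6a, in direction.

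Among the semaphorin receptors, 1 of 6 plexins tested rose, where 7.19% of all genes did, and 5 did not pass. The neuropilin Nrp2 rose too. Plxna2, a receptor for class 6 semaphorins and, with neuropilins, for class 3, read 31.8 and 38.6 with vehicle, just above background, and 125 and 120.3 with IL-1b. The treated arrays were alike and both higher, and Plxna2 rose by 1.66 ± 0.43 on the log2 scale, at the edge of the threshold (SE, adjusted p = 0.049). Its vehicle values alone averaged below the brightness filter, so it entered the test only through its IL-1b arrays. Its further 2 probe sets were too dim to enter the test. They read 5.73 and 4.02, and 6.19 and 14.5, with vehicle, all below background. With IL-1b they read 121 and 118, and 62.9 (on IL-1b replicate 1, below the background of that array) and 82.1. Without the filter on dim probe sets the first of them passed (log2 fold change 3.60, adjusted p = 0.016), the second did not (adjusted p = 0.13), and the brightest missed (adjusted p = 0.098). Nrp2, a co-receptor for Sema3f and for lymphatic growth factors, read 189 and 161 with vehicle and 337 and 367 with IL-1b and rose 1.98-fold (log2 fold change 0.99 ± 0.21, adjusted p = 0.023). A dimmer Nrp2 probe set gave 1.03 ± 0.73 and did not pass (adjusted p = 0.41). Nrp1, the related co-receptor outside the symbol rule, read 374 and 398 with vehicle and 169 and 419.8 with IL-1b, so its treated arrays lay on either side of vehicle (adjusted p = 0.43).

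The plexins that did not pass had log2 fold changes of -0.71 to 0.26. Plxnb2, a receptor for class 4 semaphorins, read 1835 and 1972 with vehicle and 1496 and 1741 with IL-1b (adjusted p = 0.36, 95% interval -0.59 to 0.12). Plxna1 read 450.1 and 503 with vehicle and 494 and 655 with IL-1b (adjusted p = 0.43, interval -0.20 to 0.71). For these 2 receptors a 2-fold change in either direction lay outside the interval. Plxnd1, the receptor of Sema3e, read 67.2 and 107 with vehicle and 129 and 70.0 with IL-1b, with overlapping groups (adjusted p = 0.85). Plxna3 and Plxnb1 did not pass at any of their probe sets (adjusted p = 0.20 to 0.77).

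Of the Eph receptors, 1 of 5 tested rose, where 7.19% of all genes did, and 4 did not pass. In limma 0 of 3 ephrins passed, nor did any have an unadjusted p under 0.05. Epha2, a receptor tyrosine kinase for class A ephrins, read 94.7 and 75.9 with vehicle and 463 and 441 with IL-1b. The groups were far apart for the spread within them, and the means were 85.3 ± 13.2 and 452 ± 15.5 (SD, n = 2), a rise of 5.06-fold (log2 fold change 2.34 ± 0.23, SE, adjusted p = 9.9e-04). Its ligand Efna1 read 57.6 and 69.6 with vehicle and 117 and 100.03 with IL-1b but did not pass (0.72 on the log2 scale, adjusted p = 0.27), nor did a further probe set of it at 0.26 (adjusted p = 0.73). Efna4 and Efnb1 had log2 fold changes of -0.04 and 0.64 (adjusted p = 0.96 and 0.31). Ephb4, the receptor that marks veins, read 322 and 306 with vehicle and 333 and 349.6 with IL-1b (adjusted p = 0.71, 95% interval -0.30 to 0.53). That interval leaves out a 2-fold change either way, and the sign of the value turned to -0.088 with median centring. Ephb6, which lacks kinase activity, read 299 and 286 with vehicle and 199 and 128 with IL-1b and came nearest to passing among the other Eph receptors (log2 fold change -0.85 ± 0.27, adjusted p = 0.086). Epha4 and Ephb3 were at -0.42 and -0.58 (adjusted p = 0.44 and 0.35).

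The 21 member genes not tested were Efna5, Efnb3, Epha3, Epha5, Epha6, Epha7, Epha8, Epha10, Ephb1, Ntn5, Plxna4, Plxnc1, Robo3, Sema3a, Sema3g, Sema4d, Sema4f, Sema6d, Slit1, Slit3 and Unc5a. Their 28 probe sets read 1.51 to 34.0 and 1.48 to 46.4 on the vehicle arrays, with 1 and 2 above background, and 2.88 to 121 and 1.29 to 28.0 on IL-1b replicates 1 and 2, with 4 above background on each. They were measured near the background of every array, so a level can be neither given nor excluded. Without the filter 0 of these 21 genes passed in limma, and 2 had an unadjusted p under 0.05.

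Where a member had several probe sets tested, they mostly moved alike. Of 13 such genes, 11 had all their probe sets in the same direction, and Sema6c and Unc5b did not. All tested probe sets passed for Ntn1 and Slit2, and 1 of 2 for Nrp2, Sema6a and Unc5c. The dimmer tested one of Ntn1 and the called one of Sema6a were bright enough to be tested only through their brighter group.

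Genes that carry guidance signals inside the cell or act as co-receptors were described by 3 lists of 81 genes in all, none of them a member. Of 66 tested, 4 rose (6.06%, against 7.19% of all genes), 11 fell (16.7%, against 8.13%) and 51 did not pass, with a median log2 fold change of -0.12. In the semaphorin list 2 of 25 rose (8%) and 4 fell (16%). Rnd1, a GTPase without GTP hydrolysis that binds plexins, read 65.5 and 44.9 with vehicle and 550.4 and 657 with IL-1b, a rise of 10.1-fold (log2 fold change 3.34 ± 0.27, SE, adjusted p = 4.0e-04). Dpysl3, a cytosolic phosphoprotein of the semaphorin response, rose by 1.43 ± 0.26 (adjusted p = 0.013, and 0.056 without the intensity trend of the fit). The actin-oxidising enzymes Mical3 and Mical1, which plexins activate, fell, with log2 fold changes of -1.39 ± 0.18 and -1.24 ± 0.22 (adjusted p = 0.0032 and 0.013). The other genes of this list that fell were Mical2 and Rnd3, with log2 fold changes of -1.13 ± 0.15 and -0.85 ± 0.17 (adjusted p = 0.0032 and 0.018). Rnd1 and Rnd3 thus moved in opposite directions.

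In the ephrin list 1 of 23 rose (4.35%, against 7.19% of all genes) and 3 fell (13%, against 8.13%). Pik3r1, the regulatory subunit of phosphoinositide 3-kinase, read 83.2 and 109 with vehicle and 474 and 476 with IL-1b and rose by 2.26 ± 0.23 on the log2 scale (SE, adjusted p = 0.0011). Tns1 (tensin), a focal adhesion protein that binds actin, read 5677 and 5859 with vehicle and 1353 and 1295 with IL-1b and fell by 2.12 ± 0.14 (adjusted p = 1.9e-04). The adaptor Nck2 and the endocytic scaffold Itsn1 fell, with log2 fold changes of -1.07 ± 0.25 and -1.05 ± 0.23 (adjusted p = 0.035 and 0.026). Adam10, the protease that sheds ephrins, read 115 and 135 with vehicle and 218 and 416 with IL-1b and just missed (adjusted p = 0.056); it was chosen after its values were seen, as were Nrp1 and Neo1.

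In the Slit and netrin list 1 of 19 rose (5.26%, against 7.19% of all genes) and 4 fell (21.1%, against 8.13%). Flrt2, a membrane protein that binds Unc5 receptors, read 77.3 and 63.7 with vehicle and 233 and 348 with IL-1b and rose by 1.94 ± 0.31 on the log2 scale (SE, adjusted p = 0.0076). Pak1, a kinase activated by Rac and Cdc42, read 1625 and 1556 with vehicle and 403 and 482 with IL-1b and fell by 1.84 ± 0.16 (adjusted p = 4.7e-04). Enah, an actin regulator of the Ena/VASP family, and Ptk2, focal adhesion kinase, fell, with log2 fold changes of -0.80 ± 0.17 and -0.72 ± 0.16 (adjusted p = 0.026 and 0.028). On the same arrays 10 of the 11 smooth muscle markers fell, and their part in the decreases of list genes was not tested. The decreases of Enah, Ptk2 and Itsn1 did not pass with median centring (adjusted p = 0.15, 0.19 and 0.051). Nck2 missed without vehicle replicate 1 (adjusted p = 0.23), Mical1 and Itsn1 without vehicle replicate 2 (adjusted p = 0.13 and 0.099), and Enah and Ptk2 without each of these arrays in turn (adjusted p = 0.19 to 0.27). A further, dimmer probe set of Enah read 78.5 and 80.3 with vehicle and 136 and 74.6 with IL-1b, with a log2 fold change of 0.33 (adjusted p = 0.65), so the mean of both was -0.23 (adjusted p = 0.53). A dimmer one of Itsn1 was at -0.14 (adjusted p = 0.93), and the mean of its 2 was -0.59 (adjusted p = 0.4). Over all alternatives the adjusted p of these 5 genes reached 0.53, 0.4, 0.27, 0.23 and 0.13 for Enah, Itsn1, Ptk2, Nck2 and Mical1.

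Leaving out single arrays kept the sign of all 11 called members. Ntn1 stayed at 4.16 to 4.27 on the log2 scale, Epha2 at 2.18 to 2.49, Sema4b at 1.96 to 2.16 and Sema4a at 1.37 to 1.59, and these 4 passed each time. Robo1 and Slit2 also passed each time at the same probe set, with wider ranges of 1.198 to 1.93 and 1.199 to 2.23. Sema3d passed each time at -2.95 to -1.97. Sema3e was at -3.64 with IL-1b replicate 1 left out and -1.85 with IL-1b replicate 2 left out, and it missed the threshold without vehicle replicate 1 (adjusted p = 0.13, range over 14 alternatives 3.6e-12 to 0.13). Nrp2, Plxna2 and Unc5c missed without vehicle replicate 1 (adjusted p = 0.07, 0.27 and 0.34) and without vehicle replicate 2 (adjusted p = 0.2, 0.22 and 0.43). Over all alternatives their adjusted p ran from 1.7e-04 to 0.41, from 0.013 to 0.27 and from 6.5e-04 to 0.43. Without vehicle replicate 1, 5 members were higher, against 4.5% of all genes, and 1 was lower, against 4.48%, since besides Nrp2 and Plxna2 Slit2 was not counted, as another probe set of it then became the brightest and missed (adjusted p = 0.056). Without IL-1b replicate 1, 10 members were higher, with Plxna1 and Sema3c added, against 15.6% of all genes. In the same fit 9 were lower in place of 3, with Ephb3, Ephb6, Plxna3, Plxnb1, Sema3f and Sema6a added, against 18.1% of all genes. Without IL-1b replicate 2, the same 8 members were higher, and 6 were lower, with Ephb6, Plxnb2 and Unc50 added, against 27.3%.

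**Figure D4:**
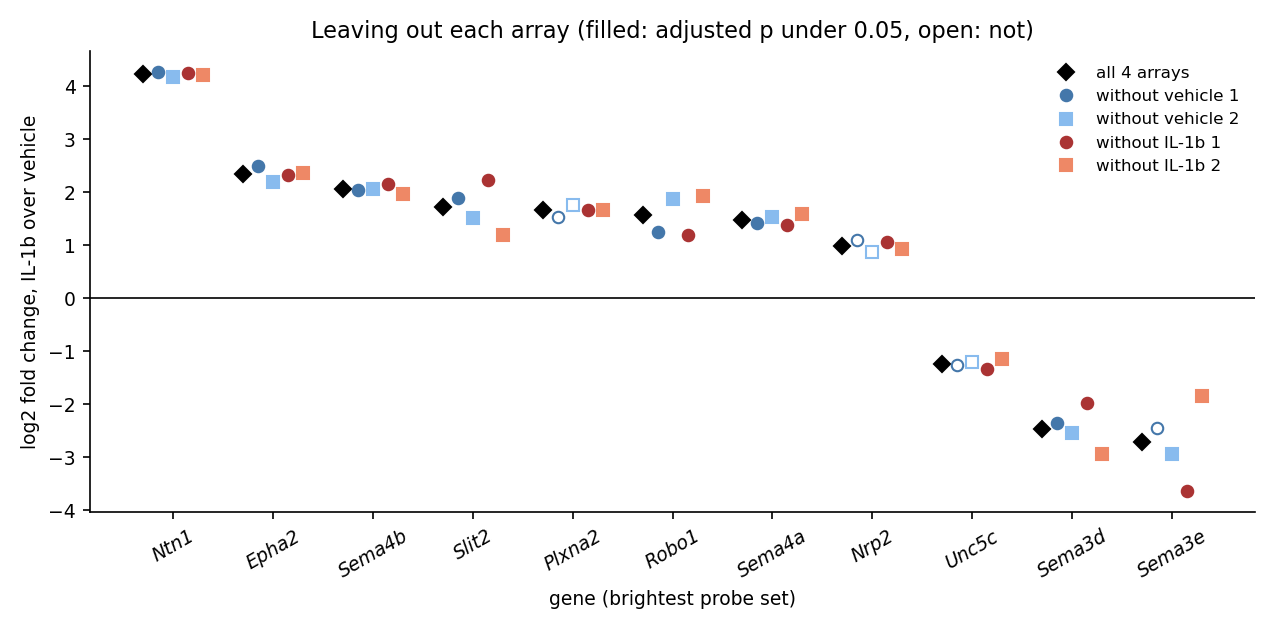
Log2 fold change of IL-1b over vehicle for the 11 guidance genes past the threshold, with all 4 arrays (diamonds) and without each array in turn, filled where the adjusted p was under 0.05 and open where it was not. Ntn1 stays between 4.16 and 4.27, Slit2 and Sema3e move most with the IL-1b array left out, and Nrp2, Plxna2 and Unc5c are open without either vehicle array.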

How the data were processed

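Total RNA was labelled with biotin and hybridised, per the labels' protocols for the arrays. The authors deposited linear-scale intensities per probe set, and the submitters' processing notes name MAS5, whose version is not given in the sources here. It scales each array, and the trimmed mean was 250.1 on all 4.

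Values were taken as log2 after adding 5.49, the 10th percentile over the table. Without its 57 control probe sets, the 18625 probe sets with a mean log2 value at or above the 40th percentile (5.37) entered a limma fit (version 3.58.1, R 4.3.3; lmFit, eBayes with intensity trend, 2 residual and 4.91 prior degrees of freedom), adjusted by Benjamini-Hochberg over all. The mean was over both groups, so a probe set bright in a single group could enter through it alone. Symbols came from the platform annotation. Probe sets with several symbols or with none were not kept out of the fit, but they stood for no gene. A gene is its brightest probe set by mean log2 value. Background was the 95th percentile of 27 bacterial control probe sets per array, and an at-least fold sets the brighter group against it.

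Genes were named by rule: any called probe set, the 10 brightest members, uncalled changes of at least 1 (log2), members whose probe sets differ, and up to 4 called genes of each pathway list. The tested members outside this rule, such as Ephb6 and Efna1, are given by name as well. So are Mical2 and Rnd3 of the semaphorin list, added after their values were seen. Alternatives changed offset, scaling, filter, prior, block, threshold, probe set choice and arrays. The procedure was tested on simulated data. The number of arrays limits the precision. Members and lists were chosen with earlier results of these data known.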

Additional observations from a re-analysis of the deposited data

How the results depend on the processing

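Counts of called genes moved with the processing, while no called member changed sign under any alternative run. Of 8 members higher and 3 lower, 5 and 1 passed without the intensity trend, against 2.97% and 2.79% of all genes, and 3 and 1 at an adjusted p of 0.01, against 3.83% and 3.91%. With a filter at the 60th percentile 20 members were tested, and 7 (35%) were higher and 1 (5%) lower, against 8.72% and 10.2% of all genes. The probe sets of Plxna2, Sema3e and Unc5c used here were too dim for that filter. Leaving out 1 array gave 5 to 10 higher and 1 to 9 lower, while the share of all genes ran from 4.45% to 23.3% higher and from 4.14% to 27.3% lower. Among the 66 pathway genes, 4 higher and 11 lower, leaving out 1 array gave 4 to 13 higher and 5 to 23 lower, the highest of both without IL-1b replicate 2, where 5074 of all genes were called in place of 1532. Without IL-1b replicate 2, the pathway share called higher lay below that of all genes (23.3%), and the share called lower lay above it (27.3%). The same held without IL-1b replicate 1 (15.6% and 18.1% of all genes). With either vehicle array left out, both pathway shares lay above those of all genes. The lower pathway count was 7 with median centring and 3 without the intensity trend, against 6.17% and 2.79% of all genes. It was 4 at an adjusted p of 0.01 and 7 with at least 2-fold, against 3.91% and 5.6%. Without the intensity trend Robo1, Slit2, Sema3d, Sema3e and Nrp2 missed (adjusted p = 0.11, 0.11, 0.053, 0.1 and 0.077). Plxna2 also missed with no offset, quantile normalization, median centring and no filter (adjusted p = 0.051, 0.071, 0.082 and 0.098). Nrp2 missed with median centring and with the mean of its probe sets (0.27 and 0.12), and Unc5c with no filter and with the mean of its probe sets (0.07 and 0.18). With 3 arrays, the single one remaining in a group had no spread of its own, and the fit took that of the other pair.

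Among the members named by rule, reversed signs were seen only in those that had not passed. Ephb4 was at -0.088 with median centring. Sema6c, at 0.17, was at -0.014 with quantile normalization, -0.033 with median centring, -0.090 to 0.43 with 1 array left out (lowest without vehicle replicate 2), -0.13 as the mean of its probe sets and -0.44 at the probe set with the largest change. Unc5b, at -0.25, was at 0.057 as the mean of its probe sets and 0.36 at the one with the largest change. Median centring adds -0.21 to every log2 fold change, and the mean of probe sets joins probe sets of opposite sign. The shift by median centring also turns Plxnd1 (0.16), outside the naming rule, negative. The cause of the other reversals was not tested.

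The labels number the replicates without saying that equal numbers share a culture or day. Deviations of the samples numbered alike had a Pearson r of 0.09 over probe sets. With the replicate number as a block, 8 members (22.9%) were higher and 4 (11.4%) lower, against 8.73% and 10.5% of all genes. All 11 called members were kept and Ephb6 was added. The pathway genes gave 5 higher (7.58%) and 12 lower (18.2%), and all genes 1928 calls in place of 1532. Leaving out Unc50 and Unc5cl, an alternative chosen after seeing the data, could not change the 8 higher and 3 lower, since neither gene was among them. Depth in the sense of read number does not apply to arrays, and signal near background limits the 21 genes not tested.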
